A study of Mus musculus with 8 samples.

Results

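The comparison set 1 array of induced pluripotent stem cells (iPSC) made with purmorphamine beside 1 array of embryonic stem (ES) cells, and asked what still set the reprogrammed cells apart. The members were these 2 samples of the 8 in the series, chosen by their labels. The study asked whether mixtures of small molecules can turn mouse somatic cells into pluripotent cells, and its other samples were a second iPSC preparation, fibroblasts and 4 samples on another platform. ES cells came from blastocysts of the 129/Ola strain. PM2i-iPSC were mouse embryonic fibroblasts (MEF) exposed to combinations containing purmorphamine and then to 2i/LIF. OM2i-iPSC were made in the same way with an oxysterol in place of purmorphamine. The labels used here give no strain for the fibroblasts or for either iPSC preparation, no clone or passage, and no culture medium for the ES cells, so strain, medium and reprogramming cannot be told apart. Total RNA was labelled with Cy3 on Agilent 1-colour arrays with 41174 probes. Each group had 1 array, so no difference was tested and no replicate error can be given.

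Purmorphamine activates Smoothened, the membrane protein that passes on the Hedgehog signal, and certain oxysterols act on the same protein. 2i is a pair of inhibitors, of MEK and of GSK3, and the cytokine LIF signals through Stat3. Together they hold mouse pluripotent cells in the naive state, in which Pou5f1, Sox2 and Nanog maintain the network and lineage genes are mostly low. A reprogrammed fibroblast has to silence matrix, contractile and TGF-beta-induced genes, and cells with incomplete silencing keep traces of them. Imprinted genes, Hox genes and sex-linked genes are common places to look for differences between pluripotent lines.

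Probes of 3 marker genes, chosen with earlier results of these data known, are described first. Pax2 is a paired-box transcription factor of the kidney, ear and midbrain-hindbrain boundary, Prrx1 is a homeobox factor of limb and other mesenchyme, and Insig1 is the membrane protein that holds back SREBP activation when sterols are plentiful. Their sequences are shown because the differences given below for these genes rest on what the probes bind. Coordinates are those of the fibroblast file, on build mm7. Where each gene's probes lie relative to its exons was not analysed here. The probe of Pax2 lies on the plus strand at chr19:44654758-44654816, the probes of Prrx1 on the minus strand at chr1:163222856-163222915 and chr1:163218848-163218907, and that of Insig1 on the plus strand at chr5:27107061-27107533. The 60 bases of the Insig1 probe cover a genomic span of 473 bases. Capitals mark a run of 8 G in the Pax2 probe, and no other of the 41174 probes holds such a run.
Pax2: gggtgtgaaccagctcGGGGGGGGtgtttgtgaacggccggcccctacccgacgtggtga
Prrx1, first probe: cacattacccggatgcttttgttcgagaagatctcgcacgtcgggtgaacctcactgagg
Prrx1, second probe: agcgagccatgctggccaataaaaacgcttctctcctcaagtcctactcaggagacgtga
Insig1: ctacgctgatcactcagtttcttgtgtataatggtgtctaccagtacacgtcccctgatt

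Levels are given as log2 of the processed signal relative to the array's 75th percentile, so 0 is the brightness that 25 percent of the spots exceed. The share of spots well above background was 66.9% on the ES array and 63.4% on the PM2i-iPSC array, and the lowest signals well above background were -5.13 and -4.59. Where 1 side was not well above background, the difference is a bound and the fold is given as "at least". The arrays of ES and PM2i-iPSC shared slide 1. The other iPSC array came from slide 2, and the MEF array from slide 3, read with older software. Group and slide cannot be told apart there, so levels on these 2 arrays are set beside the others and not compared. The PM2i-iPSC array had a raised area. In rows 1 to 112 of 532 the dim end of its raw signal, the 20th percentile in bands of 7 rows, lay up to 2.18 log2 units above the median band, against at most 0.85 on the ES array, 0.49 on OM2i-iPSC and 0.08 on MEF. Among probes with a single spot there, 21.3% were at least 2-fold higher in PM2i-iPSC and 10.8% lower, against 12.9% and 13.1% on the other rows. The share of probes well above background on the PM2i-iPSC array alone was 11.7% inside the area and 3.76% outside it. For this reason each count is given with and without the raised rows, gene lists are described without them, and probes inside them are named as such.

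**Figure D1:**
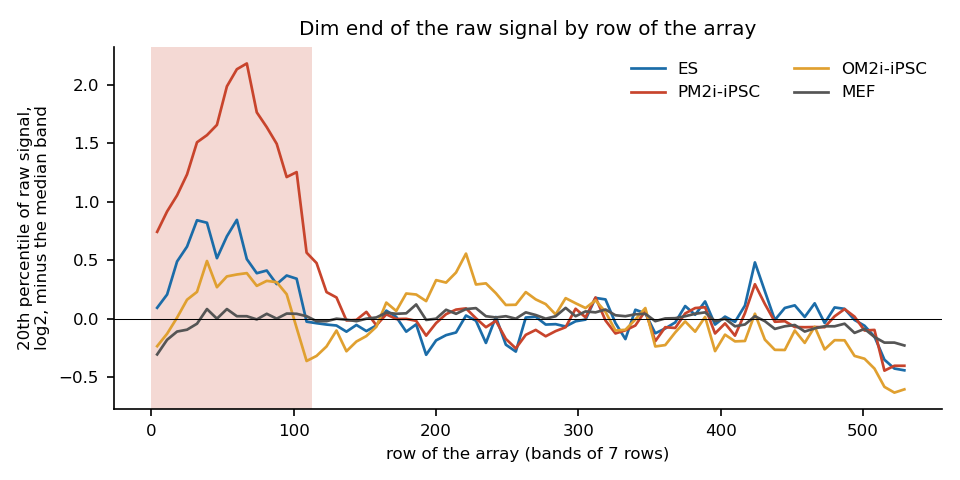
The 20th percentile of the raw log2 signal in bands of 7 rows, minus the median band of the same array, is plotted against the row for the 4 Agilent arrays. The shaded rows 1 to 112 are those in which the PM2i-iPSC array was raised by more than 0.5, up to 2.18, while the ES array reached 0.85 in the same rows.

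Most genes had like levels on both arrays, and the share that differed was larger among dimmer genes. Each gene was represented by its brightest probe. Of 20014 genes well above background on at least 1 array, 2835 (14.2%) lay 2-fold or more above ES in PM2i-iPSC and 2249 (11.2%) lay as far below. At 4-fold the shares were 3.9% and 2.25%. Without the raised rows the counts were 2044 (12.3%) and 1977 (11.9%) of 16584, with 2.99% and 2.48% at 4-fold. The median difference over those genes was -0.05. Among genes with a mean level above 2, 1.79% were 2-fold higher and 4.21% lower, whereas among genes below -3 the shares were 20.5% and 17.3%. Between 0 and 2 they were 7.22% and 8.11%, and between -3 and 0 they were 15.5% and 14.7%.

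Probes of the same gene often did not bear each other out. Of 6338 genes with at least 2 probes that passed the filter, every probe reached 2-fold upward for 119 (1.88%) and downward for 133 (2.1%). With each array scaled to its median instead of its 75th percentile, the share of higher genes among them went from 47.2% to 37.2%. Without the raised rows, 80 (1.79%) and 110 (2.46%) of 4470 genes had all probes on 1 side. Those 190 genes were 9.05% of the 2100 that had any probe 2-fold apart, and in 179 others (8.52%) probes lay 2-fold apart in opposite directions. In 12 of the 190 the probes shared at least 25 bases, so they were not separate readings.

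**Figure D2:**
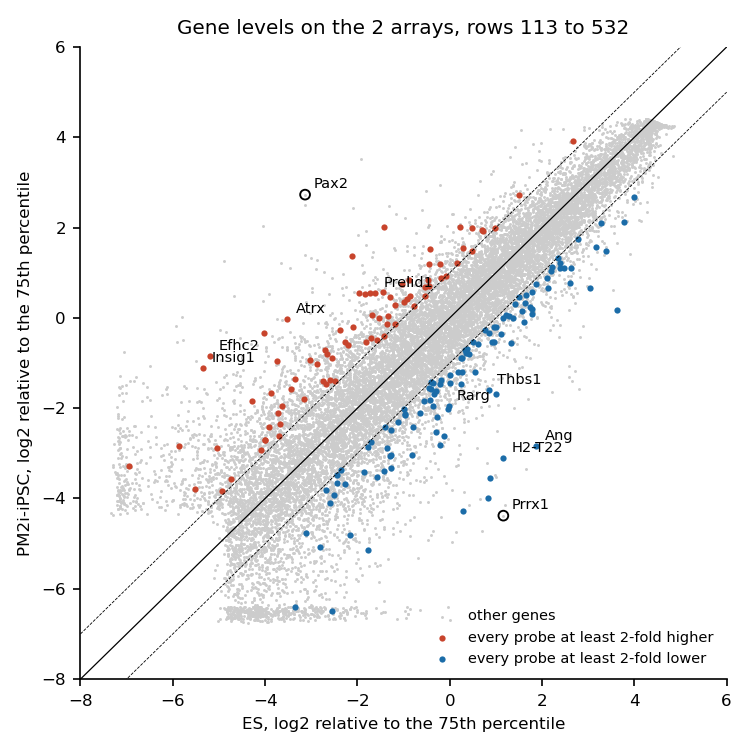
Each point is a gene on rows 113 to 532, with its ES level on the x axis and its PM2i-iPSC level on the y axis, both as log2 relative to the array's 75th percentile, for the brightest probe. Red and blue points are the 80 and 110 genes whose probes were all at least 2-fold higher or lower, dashed lines mark 2-fold, and circles mark Pax2 at 2.73 and Prrx1 at -4.38 in PM2i-iPSC.

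The pluripotency genes set the frame, since Pou5f1 and Zfp42, ES markers measured below saturation, were lower in PM2i-iPSC by less than 2-fold. Pou5f1 read 3.65 in ES and 3.21 in PM2i-iPSC. Esrrb, an orphan nuclear receptor, read 4.39 and 4.23, as bright as saturated Nanog, so its small difference is not read as closeness. Zfp42, a naive-state zinc finger gene, read 3.34 and 2.92 on its brighter probe and 2.65 and 2.23 on the other. Sox2, whose only probe lay in the raised rows, read 2.87 and 2.46. Nanog was saturated on both arrays, so no fold can be given. On the MEF array Pou5f1 read -6.66 and Esrrb -5.97. The 5 ES cell markers measured outside the raised rows summed to 78.2 times the 75th percentile in ES and 68.3 in PM2i-iPSC. The sums were 58.4 in OM2i-iPSC and 0.154 in MEF. Saturated Nanog entered them, with Sall4, at 4.27 in ES and 4.09 in PM2i-iPSC, and Esrrb of like brightness. They therefore cannot measure how near PM2i-iPSC lies to ES. Without the raised rows, 16 core and general pluripotency genes had a median difference of -0.23, with none 2-fold higher and only Gdf3 lower. Gdf3, a TGF-beta family ligand of pluripotent cells, read 2.26 in ES and 0.82 in PM2i-iPSC, a difference of -1.44. Of 18 naive-state genes none was higher and 1, the adhesion molecule Pecam1, was lower, at -1.07 in ES and -2.18 in PM2i-iPSC. The shares over all genes, against which each list count without the raised rows is to be read, were 12.3% higher and 11.9% lower.

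Pax2 had the widest measured difference among named genes with a single probe. Outside the raised rows its probe had 7 usable spots on each array. They averaged -3.13 ± 0.22 (SD over spots) in ES and 2.73 ± 0.09 in PM2i-iPSC. The ES spots lay between -3.53 and -2.88 and the PM2i-iPSC spots between 2.58 and 2.81, so they did not overlap, and the levels were 58.2-fold apart. The spots measure the array and not the cells, since they share 1 RNA. The level was -1.35 on the OM2i-iPSC array and -2.67 on MEF. Pax2 had no other probe. Of its nearest relatives, Pax5 read -1.39 in ES and -2.06 in PM2i-iPSC on a probe outside the raised rows, while its other probe and the probe of Pax8 lay within them. Pax8 read -3.76 and -2.98, and the other probe of Pax5 was at least 4.26-fold higher.

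Regulators of the mesoderm that forms kidney and skeleton did not all lie on the same side. Of 13 genes of the Pax family and intermediate mesoderm, Pax2 among them, 5 lay 2-fold or more above ES and 3 below, with a median difference of 0.53. Pax1, a sclerotome factor, had 9 spots that averaged -6.68 ± 0.38 in ES, below background, and -2.90 ± 0.13 in PM2i-iPSC, at least 4.70-fold higher. Osr1, an early kidney regulator, read -5.31 in ES, below background, and -2.22 in PM2i-iPSC, at least 7.53-fold higher.

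Prrx1 was measured in ES cells and lost from the PM2i-iPSC array on 3 of the 4 probes that passed. The first probe printed above read 1.23 in ES and was not above background in PM2i-iPSC, at least 56.4-fold lower. The second read 1.16 in ES and was at least 46.6-fold lower, and another read -0.86 and was at least 13.2-fold lower. MEF read 3.78, 4.26 and 5.09 on these probes and OM2i-iPSC -2.54, -2.83 and -1.79. The remaining probe read -1.96 in ES and -2.44 in PM2i-iPSC, 1.40-fold apart. A further 2 probes were below background on both arrays.

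**Figure D3:**
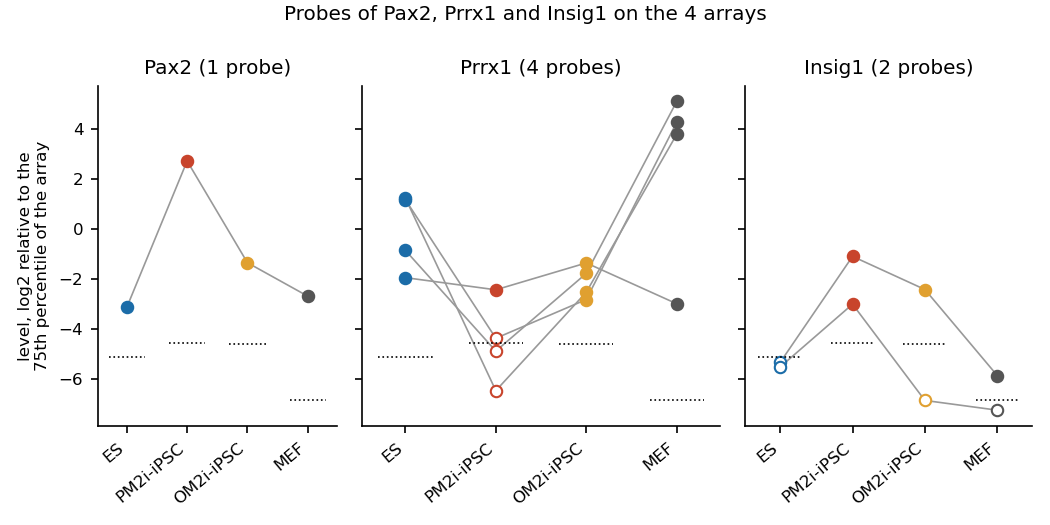
Levels of each probe of Pax2, Prrx1 and Insig1 that passed the filter are plotted for the 4 arrays as log2 relative to the 75th percentile. Filled points were well above background, open points were not, and dotted lines mark the lowest signal well above background on each array. Pax2 was higher on PM2i-iPSC than in ES, 3 of 4 Prrx1 probes were open on PM2i-iPSC, and both Insig1 probes were filled there and open in ES.

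Fibroblast genes 2-fold apart lay below ES more often than above it. Of 31 fibroblast and mesenchymal genes, Prrx1 included, 9 lay 2-fold or more below ES and 2 above. Prrx1 is 1 of the 9. The median difference was -0.68 against -0.05 over all genes. Col1a1, the main chain of type I collagen, read -2.44 ± 0.28 over 8 spots in ES and was below background in PM2i-iPSC, at least 4.44-fold lower, and its other probe outside the raised rows was at least 7.03-fold lower. The remaining probe, inside them, read -1.75 and -2.31. Fbln2, a basement membrane protein, read 1.75 in ES and -0.89 in PM2i-iPSC, 6.23-fold lower. Fn1, the matrix glycoprotein fibronectin, disagreed with itself: 2 probes read 1.15 and 0.23 in ES and -1.14 and -2.03 in PM2i-iPSC, while another read -4.54 and 0.51. Pdgfrb, a receptor of mesenchymal cells, stood on the other side at -1.86 in ES and 1.02 in PM2i-iPSC, 7.37-fold higher. The 10 marker genes of fibroblasts summed to 8.53 times the 75th percentile in ES, 4.45 in PM2i-iPSC, 5.17 in OM2i-iPSC and 177 in MEF. Prrx1 is 1 of the 10. Together with Col1a2, at 1.94 in ES and 1.04 in PM2i-iPSC, Prrx1 carried most of the gap between those arrays. Thy1, at 0.70 and 0.78, and Col3a1, at -2.60 and -1.46, read higher in PM2i-iPSC. Read by the 1 probe per gene that enters this sum, 5 of the 10 were above background in PM2i-iPSC and 9 in ES. Those not above background in PM2i-iPSC were Lum, Col1a1, Prrx1, Lox and Postn, though Prrx1 and Col1a1 each had another probe that was, as given above. The part of these markers in the results was not tested. Fewer fibroblast-like cells in a culture and less of the RNA per cell cannot be told apart in bulk RNA.

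Genes induced by TGF-beta had the lowest median of the 38 lists without the raised rows. Of 16 members, 6 lay 2-fold or more below ES and 2 above, with a median of -0.79. Thbs1, the matrix protein thrombospondin 1, read 0.85 and -1.05 on 2 probes in ES and -1.61 and -4.26 in PM2i-iPSC, 5.49-fold and 9.26-fold lower. Its remaining probe, inside the raised rows, was at least 1.92-fold lower. Inhba, an activin subunit, read -1.42 in ES and was at least 8.99-fold lower. Among the 2 members on the other side, Eng, a TGF-beta co-receptor, read -1.82 in ES and -0.19 in PM2i-iPSC.

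Contractile genes were lower in 4 of 15 cases and higher in none, with a median of -0.36, against 11.9% lower and 12.3% higher over all genes. Acta2, smooth muscle actin, had 9 spots that averaged 2.23 ± 0.16 in ES and -1.64 ± 0.06 in PM2i-iPSC, 14.6-fold lower, with no overlap. Its other probes that passed were lower in PM2i-iPSC by 1.37-fold, 1.38-fold and at least 4.6-fold, and that of 1.38-fold lay in the raised rows. Anxa1, a calcium-dependent membrane-binding protein, read -0.36 and -2.22. It read 3.15 in MEF.

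Insig1 was read by 2 probes, and neither was above background in ES. The probe shown above read -5.34 in ES and -1.10 in PM2i-iPSC, at least 16.3-fold higher. The other read -5.53 and -3.02, at least 4.33-fold higher. With normexp background correction the log2 difference of Insig1 went from 4.03 to 2.92. On OM2i-iPSC they read -2.43 and -6.87, the second below background, and on MEF -5.87 and -7.26. The other sterol genes did not share so wide a gap. Of 28 genes of sterol synthesis and SREBP feedback, Insig1 included, 4 lay 2-fold or more above ES and 2 below. Insig1 is 1 of the 4, and the median was 0.18. The shares over all genes were 12.3% and 11.9%. With all rows the list counts were 3 and 0. Lss, which closes the sterol ring, read -0.48 in ES and 1.16 in PM2i-iPSC on its brightest probe, 3.12-fold higher, with its other probes 1.77-fold and 1.66-fold higher. Cyp51, which demethylates lanosterol, differed by 1.13 on 1 probe outside the raised rows and by -0.39 on the other. Insig2, the paralog of Insig1, read 0.14 and 1.40. The synthesis enzymes Fdps and Mvk read -0.02 and -2.31 in ES and -1.31 and -3.54 in PM2i-iPSC. Each of these 3 also had a probe within the raised rows, on which the differences were 0.32, 0.22 and -0.42.

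Probes printed many times give the most precise readings on these arrays. Of 245 probes with at least 5 spots, 166 passed the filter on spots outside the raised rows, and the median SD of a difference over spots was 0.18. At least 2-fold higher were 13 (7.83%) and at least 2-fold lower 20 (12.0%), and in 32 of these 33 the spots of the arrays did not overlap. That largely follows from the choice of these probes, since a 2-fold gap is wide against an SD of 0.18. It adds nothing about the cells, because the spots of an array share 1 RNA. The genes that follow were chosen after their values were seen. Lower in PM2i-iPSC with Acta2 were Ptgs2, the inducible cyclooxygenase, at 0.23 ± 0.43 in ES and -3.02 ± 0.25, 9.56-fold, and Csf1, the macrophage growth factor, at -0.89 ± 0.10 and -2.82 ± 0.07, 3.81-fold. Cd44, a hyaluronan receptor, had spots between -2.75 and -1.30 in ES and was at least 4.87-fold lower, and was 6.45-fold lower on a brighter probe with 1 spot. On MEF the probe of Ptgs2 read 2.95, that of Csf1 2.01 and the replicated one of Cd44 4.23. Mzb1, a B-cell protein, was at 0.42 ± 0.05 and -1.79 ± 0.11 and read -5.25 in MEF. Higher in PM2i-iPSC with Pax2 and Pax1 were Gsdmd, the pore-forming gasdermin D, below background in ES and at -2.27 ± 0.12, at least 6.92-fold, and Slc2a4, the insulin-regulated glucose transporter, at -2.59 ± 0.09 and 0.06 ± 0.10, 6.29-fold. Atm, the kinase that senses DNA breaks, read -3.47 ± 0.15 and -1.75 ± 0.13, 3.30-fold higher.

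**Figure D4:**
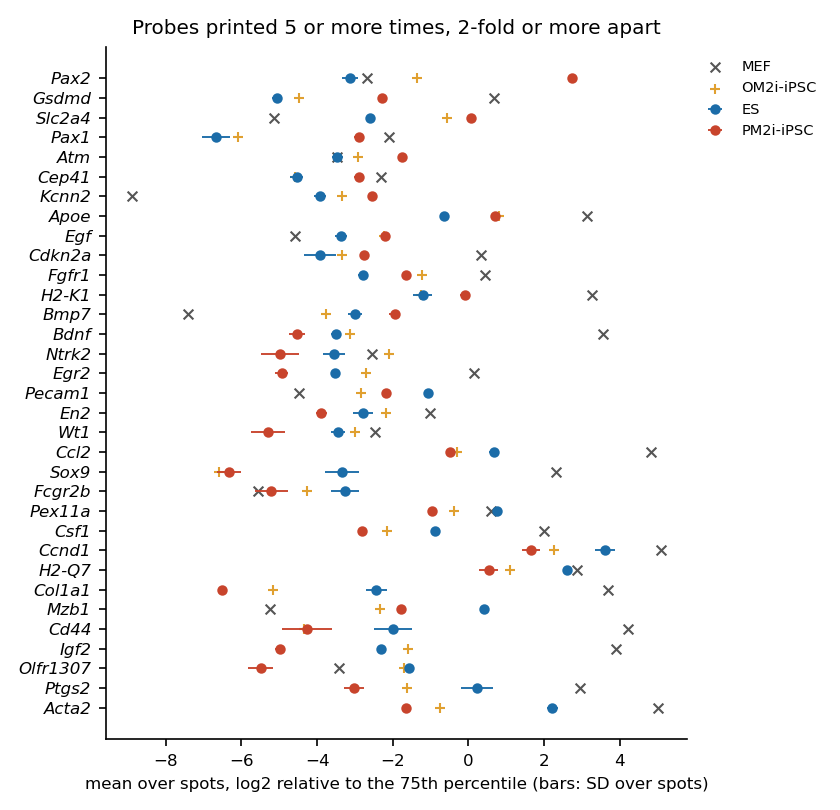
Mean level over spots, as log2 relative to the 75th percentile, for the 33 genes whose probe was printed at least 5 times outside the raised rows and differed by 2-fold or more. Blue and red points are ES and PM2i-iPSC with bars for the SD over spots, and crosses and plus signs are MEF and OM2i-iPSC; Pax2 and Acta2 lie at the 2 ends, with differences of 5.86 and -3.87.

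Among genes whose probes bore each other out, the 16 with the widest gap above ES covered unrelated functions, and 12 of them had all their probes outside the raised rows. Efhc2, an EF-hand protein of ciliary microtubules, was below background in ES on both probes and read -0.84 and -1.25 in PM2i-iPSC, at least 19.6-fold and 14.7-fold higher. The probes of Efhc2 overlap, so they are not separate readings. Atrx, a chromatin remodeller that deposits histone H3.3, read -3.52 in ES and -0.02 in PM2i-iPSC on its brighter probe, 11.2-fold higher, and was at least 4.10-fold higher on the other. Ppp4c, the catalytic subunit of protein phosphatase 4, read -1.96 and -2.93 in ES and 0.54 and -0.06 in PM2i-iPSC, 5.66-fold and 7.30-fold higher. The OM2i-iPSC array read -2.21 and -4.09. Prelid1, a lipid carrier of the mitochondrial intermembrane space, read -1.62 and -2.03 in ES and 0.55 and 0.60 in PM2i-iPSC, with 0.32 and 0.05 in OM2i-iPSC. The probes of Prelid1 overlap as well. Taf4b and Adad2, genes known from the germline, were at least 4.87-fold and 5.31-fold higher on their lesser probes. The list of germline and 2-cell-stage genes had 1 member higher and 1 lower of 15. Dner, a neuronal Notch ligand, was 4.05-fold and 5.74-fold higher, the peroxisome biogenesis factor Pex16 4.34-fold and 3.89-fold, and the sorting nexin Snx11 4.23-fold and 4.86-fold. H2-Oa, a chain of the class II modulator DO, was 3.62-fold and 4.43-fold higher.

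The 16 agreeing genes farthest below ES included 8 with all probes outside the raised rows. H2-T22, a non-classical class I histocompatibility molecule, read 1.16 and -1.54 in ES and -3.10 and below background in PM2i-iPSC, 19.2-fold and at least 8.30-fold lower. Ang, the ribonuclease angiogenin, read 1.87 in ES and -2.84 in PM2i-iPSC, 26.3-fold lower, and at least 5.38-fold lower on its other probe. The brighter probe of Ang is placed on the minus strand and the other on the plus strand. Their agreement is therefore not taken as separate readings of the same transcript. MEF read 1.99 for H2-T22 and 2.68 for Ang on the brighter probes. Rarg, the gamma receptor for retinoic acid, read -0.03 and -0.54 in ES and -1.96 and below background in PM2i-iPSC, 3.82-fold and at least 16.1-fold lower, and read 1.15 and 0.29 in OM2i-iPSC. Rara, the alpha receptor, had a single probe that passed, at -0.09 in ES and -3.66 in PM2i-iPSC. Slc44a4, a choline-like transporter, was at least 5.39-fold and 5.01-fold lower, Cryl1, a dehydrogenase of sugar metabolism, 6.09-fold and at least 7.54-fold, and Nsmaf, an adaptor of neutral sphingomyelinase, 4.64-fold and at least 5.26-fold. The probes of Slc44a4 overlap, so they are not separate readings. Prok2, a secreted prokineticin, was 3.40-fold and at least 3.81-fold lower and read 0.40 and -1.27 in OM2i-iPSC. On their brighter probes Cryl1, Nsmaf and Slc44a4 read -0.22, -0.30 and -2.16 in ES and -0.05, -0.03 and -2.51 in OM2i-iPSC.

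Genes with a single usable probe held wider gaps, but nothing on the array checks them. After Pax2, the widest upward gaps were those of the coactivator Ncoa5, at -1.92 in ES and 3.52 in PM2i-iPSC, Taf6l, a histone acetyltransferase subunit, at -4.68 and 0.49, and the phosphatase Acp5, at -3.66 and 1.22. Metrnl, a secreted factor, Pxdn, a matrix peroxidase, and Crygn, a crystallin, followed, with differences of 4.53, 4.52 and 4.44. Downward, wide gaps were those of Tspear, at 1.64 in ES and -3.35 in PM2i-iPSC, the autophagy lipid scramblase gene Atg9b, at 0.41 and -4.14, and Raph1, an actin regulator, at 0.31 and -3.86. Syp, the synaptic vesicle protein synaptophysin, read 2.58 in ES, -1.07 in PM2i-iPSC and 2.62 in OM2i-iPSC. None of these probes lay in the raised rows.

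The pathways that the culture inhibitors act on differed in a few members. Of 16 Wnt and beta-catenin targets, which GSK3 inhibition raises, none lay 2-fold above ES in PM2i-iPSC and 4 lay 2-fold or more below. Ccnd1, cyclin D1, read 3.62 ± 0.27 over 8 spots in ES and 1.65 ± 0.24 in PM2i-iPSC, 3.90-fold lower. Sp5, a direct target, read 0.93 and -1.01, and Axin2, a feedback inhibitor, was at least 3.94-fold lower. Lef1, a nuclear partner of beta-catenin, was lower on both probes outside the raised rows, at -1.36 and -1.26 in ES and -2.89 and below background in PM2i-iPSC, while OM2i-iPSC read 1.54 and 1.10. The list median was -0.31. Of 18 MEK-ERK feedback and target genes none was higher and 4 were lower, including the immediate early gene Egr1, at 2.88 and 1.54, with a median of 0.05. None of 14 LIF-Stat3 targets was 2-fold apart.

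Of 14 genes of the Hedgehog pathway, which purmorphamine turns on, none reached 2-fold upward and 3 did downward, with a median of -0.15. Over all genes 12.3% lay upward and 11.9% downward, and nothing particular to the list is read from these counts. Gli1, the transcriptional read-out of the pathway, had spots that averaged -3.11 in ES and -3.15 in PM2i-iPSC. Ptch1, its receptor and target, read -4.32 and -3.52 on a probe with 10 spots and -1.17 and -1.92 on another within the raised rows. Gas1, a co-receptor, was at least 3.89-fold lower. Smo itself read 1.93 in ES and 2.62 in PM2i-iPSC. The labels do not say whether purmorphamine was still present when RNA was taken.

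In other growth factor pathways single genes stood out. Fgfr1, a fibroblast growth factor receptor, was higher on 3 probes. The brightest read -2.12 in ES and 1.38 in PM2i-iPSC, 11.3-fold higher, a probe with several spots was 2.22-fold higher outside the raised rows, and another, which overlaps it and lies in those rows, was 3.09-fold higher. Smad9, a BMP-responsive Smad, was below background in ES and at -2.28 in PM2i-iPSC, at least 7.23-fold higher, whereas 3 of the 17 BMP and Id genes were lower and 1 higher. Igfbp5, an IGF-binding protein, read -1.87 and -4.05. Igf2, the growth factor, had 7 usable spots in ES at -2.31 ± 0.11 and was below background in PM2i-iPSC, at least 4.87-fold lower, against -1.60 in OM2i-iPSC and 3.90 in MEF.

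Imprinted genes, which are expressed from 1 parental copy, differed in both directions. Outside the Dlk1-Dio3 domain 5 of 32 lay 2-fold or more above ES and 8 below, with a median of -0.08. Phlda2, a growth-restricting gene, was lower on both probes, at 2.13 and 0.38 in ES and 0.67 and -2.16 in PM2i-iPSC, but the probes overlap. H19, a non-coding RNA next to Igf2, was 2.04-fold and at least 2.41-fold lower. Nnat, a membrane proteolipid of neurons, read -0.39 and -2.79. Ascl2, a trophoblast factor, was on the other side at -2.88 and -1.14. None of 4 genes of the Dlk1-Dio3 domain was 2-fold apart.

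Among chromatin regulators, 2 of 27 Polycomb subunits were higher and 4 lower, with a median of -0.29, near the shares over all genes of 12.3% and 11.9%. Pcgf2, a ring-finger subunit of PRC1, read 1.57 in ES, -1.09 in PM2i-iPSC and 1.39 in OM2i-iPSC, 6.32-fold lower in PM2i-iPSC. Tet3, a methylcytosine oxidase, had probes that disagreed. The first read -1.31 and 2.48, 13.8-fold higher, and the other 2 were 2.02-fold and at least 2.12-fold lower. Of 21 Hox cluster genes 3 were higher and 3 lower, also near those shares. Hoxa9 was below background in ES and at -0.92 in PM2i-iPSC, at least 16.4-fold higher, while Hoxa7, its neighbour in the cluster, read -0.85 in ES and was at least 13.3-fold lower. OM2i-iPSC read -4.01 and 0.06 for them.

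Interferon and class I genes were also mixed, with 4 of 21 higher and 6 lower. Ifit1, an interferon-induced antiviral protein, read 1.02 in ES and -2.50 in PM2i-iPSC, 11.4-fold lower, and Ifi27 0.98 and -3.48 on its brighter probe. H2-D1, a classical class I chain, was 2.02-fold and at least 2.19-fold higher. Its probes are placed apart on chr17 and on opposite strands, so their agreement is not taken as separate readings of the same transcript. Respiratory chain and glycolysis genes had no member 2-fold apart among 15 and 25. Of 19 cell cycle genes 1 was higher and 1 lower.

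**Figure D5:**
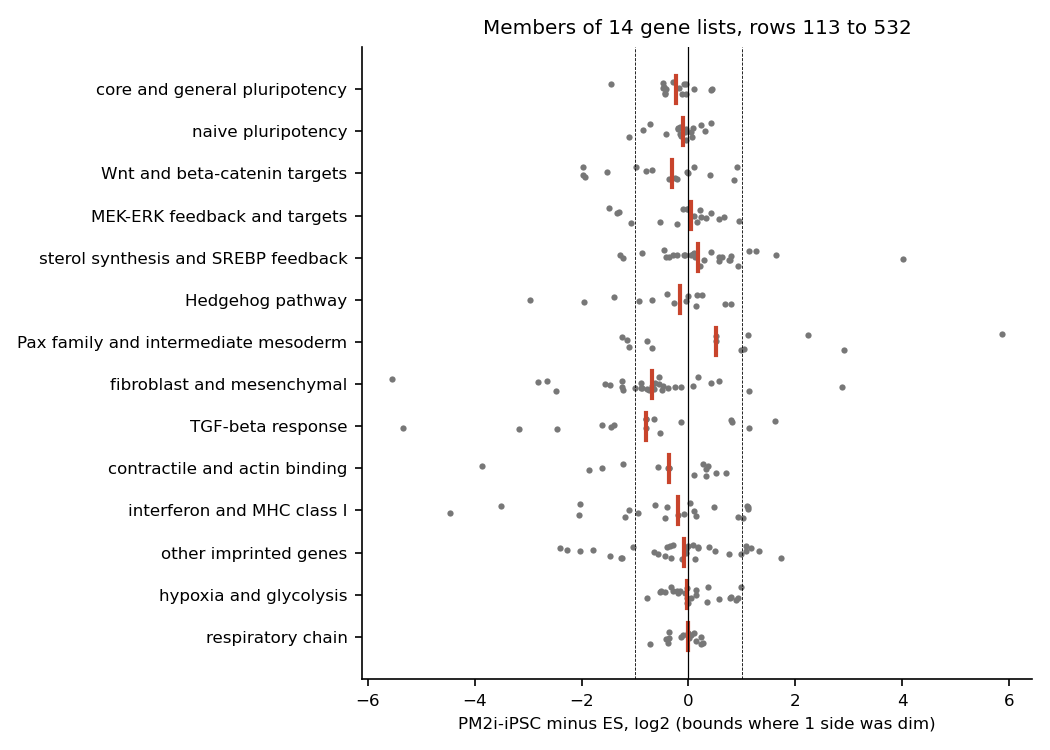
Each grey point is a gene of 1 of 14 lists, placed by its log2 difference between PM2i-iPSC and ES on rows 113 to 532, with bounds where a side was dim. Red bars are list medians, from -0.79 for TGF-beta response to 0.53 for the Pax family and intermediate mesoderm, and dashed lines mark 2-fold.

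Extraembryonic endoderm genes lay 2-fold or more below ES in 6 of 15 cases and above in none, with a median of -0.62, against -0.13 on all rows. Of 7 markers of this tissue, each read by 1 probe outside the raised rows, 4 were above background in ES and 3 in PM2i-iPSC. Gata6 read 4.32 in ES and 4.30 in PM2i-iPSC, Gata4 -3.23 and -3.85, and Sox7 -2.06 and -2.95. Dab2 read -2.23 in ES and was not above background in PM2i-iPSC. Afp and Ttr were not above background on either array, nor was Sox17 on the brighter of its 2 probes outside the raised rows. Of 18 neural stem cell genes 5 were lower and none higher. Nfia, a glial factor that read high in MEF, was lower on 2 probes, at -0.81 and -0.23 in ES and -3.04 and -3.70 in PM2i-iPSC, with 3.51 and 4.97 in MEF. Another probe, within the raised rows, read -2.97 and -1.64. The astrocyte list had 5 members higher and 1 lower of 17 on all rows, and 3 higher and 2 lower of 14 without the raised rows. Slc1a2, the glial glutamate transporter, had a probe that passed only within those rows, at -2.19 and 0.49 on a probe inside them.

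Transcripts of the sex chromosomes were chosen after their values were seen. Ddx3y, Eif2s3y and Uty, on the Y chromosome, have 6 probes between them, and none was above background on ES or on PM2i-iPSC, while 5 were on OM2i-iPSC and 5 on MEF. The brighter probe of Ddx3y read 1.09 in OM2i-iPSC and 2.36 in MEF, and the probe of Eif2s3y -0.66 and 0.84. Other genes of the Y chromosome did not share this pattern. Kdm5d, a histone demethylase, was above background in ES, at -4.07, and in MEF, at 1.37, but not in PM2i-iPSC or OM2i-iPSC. Zfy1, a zinc finger gene, was above background in PM2i-iPSC, at -4.12, and in OM2i-iPSC, at -4.06, on a probe outside the raised rows, but not in ES or MEF. Xist, the RNA that coats the inactive X, read 2.51 in ES and 1.87 in PM2i-iPSC on its brightest probe and -0.10 in MEF. Its other passing probes differed by -1.26 and -0.64. The labels give no sex for any group. Genes on the X chromosome had a median difference of -0.10 over 560 genes outside the raised rows, within the range of the 19 autosomes, from -0.13 to 0.02.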

How the data were processed

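RNA of 4 mouse samples was measured on Agilent 1-colour arrays, 1 array per group, and 4 Affymetrix samples were not used here. The authors deposited scanner files with spot intensity, extracted per the file headers with Feature Extraction 10.7.3.1 (9.5.3.1 for MEF). The deposited series table holds nearly the same intensity and was an alternative. Control and outlier spots were left out, log2 of the processed signal minus the array's 75th percentile was taken, and spots of a probe were averaged. Of 41174 probes, 22951 were named by RefSeq accession, 6659 by symbol, 3109 by older symbol, and 8455 kept the file's name. A gene was its brightest probe and entered when well above background on ES or PM2i-iPSC. A side not above background entered at the array's lowest signal well above background, or at its own where that was brighter. Arrays, at 1 per group, limit the precision, and no test was possible. The counting was tested on simulated data. The genes, the 38 lists and the rule for named genes were chosen with earlier results of these data known: the 3 marker genes, the 16 widest agreeing genes per direction, the 8 widest single-probe genes, the 6 widest bounds, and up to 5 members of each list plus 2 opposite ones. Clones and predicted genes were left out of the rankings, and list members whose probes all agreed were added. Genes named outside the rule, such as Zfp42, Esrrb, Sox2, Pou5f1, Nanog, Pax5, Pax8, Insig2, Fdps, Mvk, Gli1, Ptch1, Smo and the sex-linked genes, and the raised rows were chosen after values were seen. Python 3.11.15 with pandas 2.3.3 was used, and limma 3.58.1 for normexp. A few genes that the rule names are not reported here.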

Additional observations from a re-analysis of the deposited data

How the results depend on the processing

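No paired analysis was possible because each group had 1 array and the labels give no replicate numbers. Counts of genes 2-fold apart, 1 value per gene, stayed within 1.5 times under every planned scaling, background correction, probe summary, dim-probe filter and saturation rule that was run, and without the raised rows, an alternative added after seeing the data. At 4-fold they were 780 higher and 451 lower, and 13 and 12 for genes whose probes all agreed. Requiring both arrays above background left 65 agreeing higher genes. Asking for 2 agreeing probes with none opposite, also added later, gave 224 and 245. The median over all genes moved by 0.19 with no filter on dim probes and by less than 0.1 otherwise. Median scaling turned the split of agreeing genes to 37.2% higher, from 47.2%. Of 95 named differences, normexp background correction moved 60 by more than the spot error of 0.18, and 16 by more than 1.5-fold, 15 of these towards 0, and took 4 below 2-fold. The median over probes moved 28 and turned Tet3 to -1.01, with 17 moved by more than 1.5-fold. Under normexp Pax2 stood at 5.50, Prrx1 at -4.92 and Insig1 at 2.92. With both arrays required above background, Prrx1 was left with its remaining probe, at -0.49. Depth is set by signal over background: below it only bounds can be given.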
